A study of Sus scrofa with 22 samples.

Results

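The sequences described here are copies of a miRNA that have the length of its commonest form and carry another base at the very 3′ end. For each miRNA name the leading sequence was the one with the largest count summed over 22 libraries. A member had the same length as the leading sequence and exactly 1 difference from it, at the last or the second last position. The rule found 477 members, 368 at the last and 109 at the second last position, among 8409 named sequences, and they stood under 152 of 250 miRNA names. The summed counts chose the leading sequences, so members were chosen by read counts and are rarer than their leading sequence by rule.

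Subcutaneous fat of female pigs aged 6 months gave the small RNA libraries, with 5 libraries of Hampshire thick fat and 2 of Hampshire thin fat, 4 of Pietrain thick fat and 3 of Pietrain thin fat, and 4 of Large White thick fat and 4 of Large White thin fat. No genotype or treatment other than breed and fat class is named for any animal, and the labels give no thickness behind the words thick and thin. In whole tissue, fewer cells of a type and less RNA per cell cannot be told apart. Each breed has a count table of its own, and the labels do not say whether breeds were prepared or sequenced together, so breed and such a batch cannot be told apart.

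A miRNA is a short RNA cut from a hairpin precursor that guides an Argonaute protein to mRNAs through its seed, bases 2 to 8. Its 3′ end is the part that varies most: exonucleases shorten it, and nucleotidyl transferases add bases that the genome does not encode, mostly A and U, which in human cells can mark a miRNA for decay or change its stability. A member has the letters that the loss of 1 base and the gain of another would leave. A base misread or misjoined at the end of the insert would leave the same letters, and which of these gave the reads was not tested.

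The leading sequences of the 11 miRNAs with at least 3000 leading reads in every library are shown 5′ to 3′ as deposited. The seed is in capitals. Pooled shares below are taken against these sequences, and the share of any other miRNA against its own leading sequence. The 4 let-7 miRNAs share the seed GAGGUAG, and the other seeds differ from each other.
miR-148a-3p: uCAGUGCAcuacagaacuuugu
miR-26a: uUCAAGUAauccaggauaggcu
miR-10b: uACCCUGUagaaccgaauuugu
miR-99a: aACCCGUAgauccgaucuugu
let-7a: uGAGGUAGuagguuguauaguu
let-7f-5p: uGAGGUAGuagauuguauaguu
let-7g: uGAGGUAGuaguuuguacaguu
let-7i-5p: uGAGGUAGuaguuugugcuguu
miR-143-3p: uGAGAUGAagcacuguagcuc
miR-27b-3p: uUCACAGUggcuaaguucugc
miR-126-3p: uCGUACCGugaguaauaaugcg

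The 12 members with the most reads follow, with the changed base in capitals. A change is named by the base of the leading sequence, its position counted from 1 at the 5′ end, and the member's base. By the rule no member can alter the seed, and 8 of the 12 put C in place of a final U.
miR-148a-3p U22C: ucagugcacuacagaacuuugC
miR-26a U22C: uucaaguaauccaggauaggcC
miR-10b U22C: uacccuguagaaccgaauuugC
miR-143-3p C21U: ugagaugaagcacuguagcuU
miR-99a U21C: aacccguagauccgaucuugC
let-7a U22C: ugagguaguagguuguauaguC
let-7i-5p U22C: ugagguaguaguuugugcuguC
miR-26a U22A: uucaaguaauccaggauaggcA
let-7f-5p U22C: ugagguaguagauuguauaguC
miR-126-3p G22A: ucguaccgugaguaauaaugcA
miR-148a-3p U22A: ucagugcacuacagaacuuugA
let-7g U22C: ugagguaguaguuuguacaguC

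Libraries held 430712 to 3136842 named reads, and members took 11.7 to 13.0% of them in Hampshire (median 12.4%), 9.51 to 10.9% in Pietrain (median 10.4%) and 11.1 to 12.3% in Large White (median 11.2%). The tables list no count from 1 to 5, so a 0 can stand for up to 5 reads. Fat and stroma miRNAs, with 5 of 7 listed, made up 430983 to 536834 CPM (reads scaled to equal library size) in Hampshire. They made up 354005 to 445041 CPM in Pietrain and 353630 to 451947 CPM in Large White. The muscle miRNAs, with 2 of 4 listed, came to 111 to 1819 CPM. The liver miRNAs miR-122 and miR-192 summed to 21.2 to 24168 CPM in Hampshire, 0 to 7217 CPM in Pietrain and 0 to 4678 CPM in Large White. Over all libraries, red blood cell miRNAs came to 342 to 1568 CPM and leukocyte miRNAs to 0 to 650 CPM. Skin miRNAs, with 2 of 4 listed, came to 0 to 471 CPM. The part of these cell types in the differences between breeds was not tested.

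The labels of thick fat 1 and thin fat 1 of Large White and the authors' deposited comparison go against each other, and which of them is right is not known. A refit of the authors' comparison of fat classes gave log2 differences whose correlation across sequences with the deposited ones was −0.99997 in Pietrain and −0.99986 in Hampshire, where the deposited sign is thin minus thick. In Large White it was −0.653 as labelled and −0.99996 with these 2 libraries exchanged. The library labelled Large White thick fat 1 also stood apart in the members: G replaced a final U in 3.75% of its reads of leading and member sequences, against 0.957 to 1.88% in the other 21 libraries. Counts of calls that use Large White are therefore given below with both libraries exchanged and left out as well.

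Members ran from 6 to 828044 reads with a median of 337. Of the 477, 159 were listed in all 22 libraries, 312 in at least 11 and 43 in 1 library, and 352 were in the tables of all 3 breeds. Reads of members came to 4166536 of 37002566, or 11.3%, and 98.2% of these had the change at the last position. At least 10000 reads were counted for 52 members, and under 100 for 146. The 98 names without a member had a median of 82.5 leading reads, against 5007.5 for names with a member. The most abundant of them was miR-381-3p, which had 143149 reads of 1 sequence and no other listed row, followed by miR-450c-5p with 8633 leading reads and miR-1271-5p with 5985. The sequence of 2 members is listed under 2 names, miR-200b and miR-429, and the reads of such a sequence cannot be assigned to 1 of them.

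The last position stood far above all others. In the 11 abundant miRNAs, reads with a changed last base made up 16.7% ± 1.23 of leading plus member reads, and reads with a changed second last base 0.293% ± 0.0864 (SD, n = 22 for both). At positions 9 to the third last the share was taken against leading reads alone, and it was 0.224% ± 0.00764 per position (SD, n = 22). Taken against leading reads alone, the mean over libraries was 20.2% at the last position, 0.353% at the second last, and, just outside the rule, 0.134% at the third last, 0.162% at the fourth last and 0.270% at the fifth last. The lowest library at the last position had 16.2% and the highest library at the second last 0.532%, so the ranges of these positions did not overlap.

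The commonest new base differed with the base it replaced. Of all member reads, U-to-C at the last position gave 55.2% with 75 members, U-to-A 13.6% with 69, C-to-U 11.1% with 34 and G-to-A 5.97% with 23. U-to-G gave 5.41% and C-to-A 4.57%. The leading sequence ends in U in 77 of the 152 names with a member and in 8 of the 11 abundant miRNAs, and over these 11 C was the commonest new base, at 10.6% ± 0.681, followed by A at 3.56% ± 0.323, U at 1.47% ± 0.512 and G at 1.13% ± 0.474 (SD, n = 22). Within miRNAs that end in one base the shares can be read directly, and they are given so below.

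In the 8 abundant miRNAs that end in U, 12.2% ± 0.689 of leading and member reads ended in C instead (SD, n = 22). The share ran from 10.4 to 13.4% over libraries. U-to-A took 2.67% ± 0.270 and U-to-G 1.30% ± 0.603 (SD, n = 22). Positions 9 to the third last were taken over all 11 abundant miRNAs, against leading reads alone. There U-to-C was also the commonest of the changes from U, at 0.229% per position, against 0.0231% for U-to-A and 0.0155% for U-to-G.

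The share of U-to-C varied little between miRNAs. Medians over libraries were compared over 22 miRNAs ending in U that had at least 1000 leading reads in at least 11 libraries. Their quartiles were 11.7 and 12.6%, and the highest was 13.0% in miR-10a-5p. let-7i-5p had 11.1%, let-7a 12.2%, miR-148a-3p 12.0%, miR-26a 12.4%, miR-99a 12.6% and miR-10b 13.0%. The base before the final U is U in both let-7 miRNAs, C in miR-26a, and G in miR-148a-3p, miR-99a and miR-10b. The lowest values were 0 in miR-381-3p, whose single row was noted above, and 7.96% in miR-181a, where many reads end in A. Set against reads ending in C or U alone, C took 13.0% in miR-181a, and 11.6% to 14.4% in the other miRNAs apart from miR-381-3p.

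A similar share of C stood at read ends that the rule does not use. Among reads 1 base shorter than the leading sequence whose last base should be U, C took 12.2 to 14.1% of C plus U ends in 8 miRNAs (median 12.7%). Among reads 1 base longer that end in an added U or C, the share was 9.29 to 15.3% in 15 miRNAs (median 13.2%), against a median of 12.9% at the leading length in 22. let-7a gave 12.2% in the shorter and 12.6% in the leading form, and 10.3% in the longer one. miR-27b-3p reads 2 bases shorter were the exception at 0%, and there the C-ended sequence is listed with 8535 reads under miR-27a, which has the same letters.

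The amount of trimming differed between miRNAs far more than U-to-C did. For miR-148a-3p, an adipose and liver miRNA, reads 1 base shorter came to 0.313% of leading reads while the U22C member came to 14.1%. For let-7a the same values were 23.3% and 14.4%. Over the 22 miRNAs ending in U, Spearman's rho between the shorter reads and U-to-C was −0.244 and Pearson's r 0.136, as a description of miRNAs that share libraries. Between the shorter reads and U-to-A, rho was 0.0943 and r 0.516. U-to-A and U-to-G, set against each other over the same miRNAs, gave a rho of 0.779 and an r of 0.629. Among the 22 is miR-381-3p, at 0 in each of these values. Another is miR-181a, with shorter reads at 37.0% and U-to-A at 72.4% of leading reads. The correlations were not taken without them.

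U-to-A spread more widely between miRNAs than U-to-C. miR-148a-3p had 1.66%, let-7f-5p 1.80% and let-7a 1.89%, while let-7c had 4.70% and miR-26a 8.28% (medians of 22 libraries). miR-181a, a miRNA best known from lymphocytes, reached 37.9% over 12 libraries. Apart from miR-181a, the highest 4 were miR-26a, miR-191 at 7.75%, miR-145-5p at 7.60% and miR-23b at 6.996%. In exactly these 4 of the 22 the base before the final U is C, and their median was 7.67%, against 2.32% in 10 miRNAs with G before it and 2.33% in 8 with U. U-to-G was also highest after C, with medians of 1.92% after C, 1.20% after G and 0.656% after U, whereas U-to-C had 12.5, 12.5 and 11.9%. The comparison was made after the values were seen, and miRNAs are not independent replicates.

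Each of the 9 miRNAs that end in C had U as its commonest new base. The share ran from 7.73% in miR-24-3p to 19.3% in miR-378, with 13.6% in miR-143-3p, a miRNA of smooth muscle and stroma that promotes fat cell differentiation in mouse cell culture, and 18.9% in both miR-30a-5p and miR-30c-5p (medians over libraries). C-to-A ran from 0.985% in miR-24-3p to 10.3% in miR-378. C-to-G did not exceed 0.411%. miR-143-3p is also present in a longer form with an added U, which came to 69.0% of leading reads, so its shares refer to the 21-base form only.

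In the 8 miRNAs that end in G the commonest new base was A. G-to-A was 10.4% in miR-100, 10.8% in miR-125b and 19.3% in miR-126-3p, a miRNA of endothelium. The per-library range of miR-126-3p was 15.7 to 20.1%. G-to-U ran from 0.891% in miR-100 to 9.57% in miR-7134-3p. The 2 miRNAs that end in A, miR-103 and miR-28-3p, differed from the others in that A-to-U led, at 7.50 and 5.20%, over A-to-G at 1.65 and 1.60%.

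At the second last position, in 12 miRNAs with U there, U-to-C had a median of 0.359% and U-to-G one of 0.312%, while U-to-A had 0.00518%. A-to-G, in 2 miRNAs with A there, had 0.391 and 0.446%. The let-7 miRNAs, which end in UU, gave the members below, with the changed base in capitals, together with 1 member of miR-26a, because they are among the members lower in Hampshire.
let-7a U21C: ugagguaguagguuguauagCu
let-7a U21G: ugagguaguagguuguauagGu
let-7g U21G: ugagguaguaguuuguacagGu
let-7i-5p U21C: ugagguaguaguuugugcugCu
miR-26a C21U: uucaaguaauccaggauaggUu
Among miRNAs with at least 1000 leading reads in at least 11 libraries, the largest share at this position was miR-23b C23U at 2.38% (1.499 to 3.59% over 21 libraries). miR-199ab-3p U20C followed at 0.490% and miR-199ab-3p U20G at 0.462%, and miR-21 A22G had 0.446%. The less abundant miR-365-3p lies outside that limit, and its A21U member had 4.18 to 5.74% in Pietrain thick fat and 3.15 to 5.59% in Pietrain thin fat.

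Tailing of some miRNAs is described in other species: uridylation of let-7 by TUT4 and TUT7 in human cells, uridylation of miR-26a by TUT4 in human cells, adenylation of miR-21 by PAPD5 in human cells, and adenylation of miR-122 by GLD-2 in mouse liver. Such tailing adds bases to the end, while a member is a replacement at the same length, so the shares of members do not measure it. The let-7 family had 48 members under 9 of its 14 names here. The leading forms of its 7 abundant names end in U, so replacement by U cannot be seen at the last base. Replacement by A was 1.69 to 4.70% over these 7 names. miR-21, which ends in C, had 9.02% C23U and 3.54% C23A over 21 libraries, both below the medians of 13.6% and 5.53% over the miRNAs ending in C. miR-122 had 1000 or more leading reads in 5 libraries only, with 3.04% U21A and 9.88% U21C. miR-26a had 8.28% U22A. Outside the rule, reads 1 base longer with an added A came to 23.7% of leading reads for miR-21. Reads with an added U came to 17.7% for miR-21 and 3.43% for miR-26a. For the 7 let-7 names they ran from 4.94% in let-7g to 28.6% in let-7c. Whether the genome encodes these added bases is not known here.

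In Hampshire, the members called at the last position were mostly higher than in the other breeds and those called at the second last position lower, the first of which, against Large White, depended on the filter on low counts. Members and all other named sequences were tested together as a share of the leading sequence (edgeR's quasi-likelihood test with Benjamini-Hochberg adjustment, threshold 0.05), which leaves the level of the miRNA itself out of the difference. Of 124 members tested, 64 passed in Hampshire against Pietrain, where 47.6% of all 796 sequences passed. Of these, 53 were higher in Hampshire, all at the last position, beside 25.8% of all sequences, and 11 lower, beside 21.9%, 10 of them at the second last. In Hampshire against Large White 28 members passed, against 40.1% of all sequences, with 17 higher, all at the last position, beside 21.1%, and 11 lower, beside 19.0%, 10 of them at the second last. The members' share of calls was near the background against Pietrain and below it against Large White. Both comparisons share the Hampshire libraries. By kind of change against Pietrain, 16 of 32 U-to-C, 14 of 22 U-to-A, 7 of 9 C-to-U, 6 of 8 C-to-A and 3 of 9 G-to-A members at the last position rose, while 0 of 13 U-to-G members passed, with a median log2 difference of 0.32. At the second last position 5 of 6 U-to-C, 4 of 5 U-to-G and 1 of 3 C-to-U members fell, against Pietrain as against Large White.

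The median log2 difference over tested members at the last position was 0.22 in Hampshire against Pietrain and 0.10 in Hampshire against Large White, and at the second last position −0.47 and −0.60. Over all 796 sequences the medians were 0.06 and 0.02. Single-base changes at positions 9 to the third last had medians of 0.02 and −0.03, with 8 and 6 of 86 called. At position 1, 17 of 24 changes were lower in Hampshire than in Pietrain, and 1 was higher and 1 lower against Large White, and their part in the members' differences was not tested. With the 2 doubtful Large White libraries exchanged, Hampshire against Large White gave 15 higher and 1 lower at the last position and 10 lower at the second last. Leaving both out gave 15 higher and 1 lower, and 11 lower. When the level of each sequence is tested in place of its share, the split at the last position changes to 24 higher and 15 lower against Pietrain and to 21 higher and 23 lower against Large White (TMM scaling), while at the second last position 9 and 10 were lower and 1 was higher in each. Without the filter on low counts, Hampshire against Large White gave 1 higher and 2 lower of 267 at the last position and 1 higher and 14 lower of 91 at the second last. Against Pietrain the same setting gave 28 higher and 1 lower, and 14 lower.

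The second last members of let-7 and miR-26a were lower in Hampshire. miR-26a C21U ran from 0.119 to 0.154% in Hampshire (median 0.147%), from 0.192 to 0.241% in Pietrain (median 0.219%) and from 0.191 to 0.256% in Large White (median 0.221%). Every Hampshire library lay below every library of the other breeds. The log2 difference was −0.56 ± 0.08 against Pietrain (adjusted p = 1.71e-05) and −0.61 ± 0.08 against Large White (adjusted p = 7.52e-06, edgeR; ± is the standard error here and below).

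let-7i-5p U21C ran from 0.251 to 0.311% in Hampshire (median 0.294%), from 0.373 to 0.551% in Pietrain (median 0.466%) and from 0.397 to 0.469% in Large White (median 0.442%). Again no Hampshire library reached the others. The log2 differences were −0.68 ± 0.09 and −0.61 ± 0.09 (adjusted p = 8.18e-06 and 2.97e-05, edgeR).

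let-7g U21G ran from 0.197 to 0.396% in Hampshire (median 0.253%), from 0.327 to 0.414% in Pietrain (median 0.363%) and from 0.380 to 0.542% in Large White (median 0.415%). Hampshire thick fat 2, at 0.396%, was the 1 library that overlapped, and it is the shallowest of all. The differences were −0.61 ± 0.12 and −0.82 ± 0.12 (adjusted p = 0.000316 and 1.87e-05, edgeR).

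let-7a U21C and let-7a U21G were lower against Large White without overlap, by log2 differences of −0.60 ± 0.10 and −0.71 ± 0.13, and let-7f-5p U21G by −0.79 ± 0.12 (adjusted p at most 0.000186, edgeR). Against Pietrain, let-7a U21C gave −0.58 ± 0.11, let-7f-5p U21C −0.46 ± 0.10 and let-7f-5p U21G −0.49 ± 0.13. Of 28 tested let-7 members, 9 were lower in Hampshire in each comparison, beside 21.9% of all sequences against Pietrain and 19.0% against Large White. Higher were 10 against Pietrain, beside 25.8% of all sequences, and 3 against Large White, beside 21.1%. Pooled over the 11 abundant miRNAs, a changed second last base took 0.132 to 0.219% in Hampshire, 0.289 to 0.391% in Pietrain and 0.278 to 0.427% in Large White, so the Hampshire range lay below both others. One position further in, outside the rule, the mean over libraries was 0.136% of leading reads in Hampshire, 0.131% in Pietrain and 0.134% in Large White. Pooled shares, here and at the last position below, also depend on how reads divide between the miRNAs. Second last shares differ between them, with medians over 22 libraries of 0.360% for let-7a U21C and 0.204% for miR-26a C21U. The part of this division in the pooled ranges was not tested.

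At the last position Hampshire lay higher by less. U-to-C over the abundant miRNAs ending in U ran from 12.3 to 13.4% in Hampshire (median 13.0%), from 10.4 to 12.3% in Pietrain (median 11.7%) and from 11.6 to 12.4% in Large White (median 12.1%). The lowest Hampshire library, thick fat 3, lay within the Large White range and a little above the highest Pietrain library. For C-to-U in miRNAs ending in C the ranges were 14.2 to 15.4% in Hampshire (median 15.2%), 10.7 to 13.3% in Pietrain and 13.7 to 14.9% in Large White.

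miR-148a-3p U22C, the most abundant member, had 12.1 to 13.5% in Hampshire (median 13.1%), 10.0 to 12.4% in Pietrain (median 11.5%) and 11.5 to 12.3% in Large White (median 11.9%). Hampshire thick fat 3 was the library within the Large White range. The log2 difference was 0.14 ± 0.04 against Large White (adjusted p = 0.00861, edgeR) and 0.22 ± 0.04 against Pietrain (adjusted p = 0.000316, edgeR). Of the 12 most abundant members, 11 passed in Hampshire against Pietrain, all higher, with miR-126-3p G22A the exception at 0.07 ± 0.05. Of all sequences 47.6% passed there, 25.8% higher, and these 12 members were taken for their large counts. let-7f-5p U22C rose by 0.13 ± 0.04 against Large White (adjusted p = 0.0211, edgeR), but had −0.03 as a share of all reads of its name and −1.20 as a level.

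miR-148a-3p U22A was lowest in Pietrain. It ran from 1.57 to 1.92% in Hampshire (median 1.80%), from 1.12 to 1.48% in Pietrain (median 1.35%) and from 1.52 to 1.84% in Large White (median 1.67%). Pietrain did not overlap with either other breed, and Hampshire and Large White overlapped. The log2 difference was 0.50 ± 0.07 in Hampshire against Pietrain (adjusted p = 5.30e-06, edgeR).

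Other U-to-A members followed against Pietrain. let-7g U22A had 2.74 to 3.28% in Hampshire and 2.02 to 2.50% in Pietrain, a log2 difference of 0.44 ± 0.06 (adjusted p = 1.18e-05, edgeR). let-7a U22A had 1.94 to 2.27% and 1.42 to 1.87%, a difference of 0.40 ± 0.07 (adjusted p = 9.10e-05, edgeR). miR-23b U24A differed by 0.49 ± 0.08. All 3 had no overlap between Hampshire and Pietrain. When the level in place of the share was compared, the log2 differences were negative, at −0.66, −0.30 and −0.23 (TMM scaling). Of these only let-7g U22A passed (adjusted p = 0.00807, against 0.294 for let-7a U22A and 0.340 for miR-23b U24A, edgeR). Of 22 tested U-to-A members at the last position, 14 rose in Hampshire against Pietrain and none fell, beside 25.8% and 21.9% of all sequences.

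miR-143-3p C21U ran from 13.9 to 16.0% in Hampshire (median 15.1%), from 10.3 to 13.3% in Pietrain (median 12.4%) and from 13.3 to 14.6% in Large White (median 13.6%). Every Pietrain library lay below every library of the other breeds, with the highest Pietrain library close under the lowest Large White one, and Hampshire and Large White overlapped. The log2 difference was 0.38 ± 0.06 in Hampshire against Pietrain and −0.21 ± 0.05 in Pietrain against Large White (adjusted p = 3.79e-05 and 0.0261, edgeR). miR-7 U24C, of a miRNA known from endocrine tissue, had 13.5 to 16.4% in Hampshire and 9.69 to 11.4% in Pietrain, a difference of 0.51 ± 0.08.

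In Pietrain against Large White 10 of 124 members passed, all at the last position and all lower in Pietrain, beside 5.4% of all sequences in either direction, 2.01% lower and 3.39% higher. Of these, 5 were C-to-U and 4 U-to-A. miR-23a C21U had 7.91 to 10.24% in Pietrain (median 9.60%) and 11.0 to 13.5% in Large White (median 12.0%). No library overlapped, and the log2 difference was −0.44 ± 0.07 (adjusted p = 0.000195, edgeR). miR-148a-3p U22A, described above, fell by 0.36 ± 0.06 on the log2 scale (adjusted p = 0.000433, edgeR).

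The others named were smaller. miR-30a-5p C23U had 14.0 to 18.0% in Pietrain and 18.2 to 19.9% in Large White, let-7i-5p U22A 2.00 to 2.59% and 2.63 to 2.93%, and miR-27b-3p C21U 11.5 to 13.9% and 14.0 to 15.8%, with log2 differences of −0.24 ± 0.06, −0.22 ± 0.05 and −0.22 ± 0.05. miR-100 G22U had 0.712 to 0.817% and 0.858 to 1.03%, with −0.31 ± 0.08. In each of these pairs the ranges did not overlap, and the adjusted p ran up to 0.0256 (edgeR). The count was 10 with the 2 doubtful Large White libraries exchanged and 13 without them. It was 4 without Large White thick fat 4 and 6 without Pietrain thin fat 2, and 0 when levels were tested after TMM scaling in place of shares. The 10 with the libraries exchanged were all lower in Pietrain, and the 13 without them were 12 lower and 1 higher. DESeq2 called 17 lower and 1 higher, and levels after DESeq2 size factors 1 higher. With edgeR on shares of all libraries no member passed as higher in Pietrain, and miR-181a U23A came nearest, with 37.5 to 44.3% in Pietrain and 33.5 to 38.4% in Large White (0.29 ± 0.09, adjusted p = 0.0693, edgeR).

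Few members differed between fat classes. Over all breeds, 0 of 124 members passed edgeR's quasi-likelihood test with breed as a term, beside 0% of 796 sequences. DESeq2 and limma also called 0, and 8 members had an unadjusted p under 0.05 with edgeR, beside 51 of all 796 sequences. miR-126-3p G22A had 15.7 to 19.7% in thick fat (median 18.8%) and 19.0 to 20.1% in thin fat (median 19.6%), a log2 difference of −0.09 ± 0.04 (adjusted p = 0.608, edgeR), and the classes overlapped. miR-146a-5p U22A, of a miRNA induced in inflammation, had 4.19 to 6.92% in thick fat and 3.73 to 5.29% in thin fat, at 0.24 ± 0.10 (adjusted p = 0.590, edgeR). miR-24-3p C20A had 0.554 to 1.25% in thick fat and 0.778 to 1.38% in thin fat, at −0.34 ± 0.12 (adjusted p = 0.421, edgeR). miR-186 U22A had 10.18 to 14.6% in thick fat and 11.7 to 14.1% in thin fat, at −0.19 ± 0.08 (adjusted p = 0.590, edgeR). For these 4 members thick and thin fat overlapped. The count stayed 0 with the 2 doubtful Large White libraries exchanged or left out.

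Within Pietrain 1 of 168 members passed, where 7.11% of 1322 sequences did, 3.03% higher and 4.08% lower in thick fat. This was miR-148a-3p G21U, in which the second last G is replaced and the sequence ends in a run of U.
miR-148a-3p G21U: ucagugcacuacagaacuuuUu
Its share was 0.0113, 0.0108, 0.0134 and 0.00768% in thick fat, from 38, 52, 19 and 13 reads, and 0.0349, 0.0350 and 0.0390% in thin fat, from 81, 99 and 96 reads. Every thick library lay below every thin one, and DESeq2 and limma also called 1 member. The log2 difference was −1.77 ± 0.18 (adjusted p = 1.52e-05, edgeR), and the authors' deposited table gives 1.76 for thin minus thick with an adjusted p of 0.00749. That table calls this member only, beside 1.89% of its 4699 sequences in Pietrain. The share was 0.0122 to 0.0275% in Large White, with the highest value in the library labelled thick fat 1, and 0.00674 to 0.0110% in Hampshire.

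Single-base changes elsewhere in miR-148a-3p differed between the same libraries. In the same Pietrain test 40 single-base changes of miR-148a-3p at any position were tested, and 8 were lower in thick fat, G21U among them, and 1 higher. Those lower included U10G at −2.38 ± 0.24, C17A at −1.40 ± 0.19, A13C at −0.91 ± 0.15, A11C at −0.87 ± 0.13 and C9A at −0.77 ± 0.18. U10G came to 0.00339 to 0.00647% of leading reads in thick fat and 0.0211 to 0.0257% in thin fat, again without overlap. At position 1, U1G was 1.65 ± 0.11 higher in thick fat, at 0.820 to 0.929% of leading reads against 0.268 to 0.304% in thin fat. Over all miRNAs 33 of 45 changes at position 1 and 9 of 156 at positions 9 to the third last passed in Pietrain, against 0 of 147 at the last position. These 5′ and inner changes moved with fat class beside the member, and their part in its difference was not tested.

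Within Large White 0 of 158 members passed, beside 0% of 1091 sequences, and within Hampshire 0 of 140, beside 0% of 886. edgeR, DESeq2 and limma all called 0 in both, as did edgeR in Large White with the 2 doubtful libraries exchanged or left out. With edgeR, 7 members in Large White and 1 in Hampshire had an unadjusted p under 0.05, beside 36 of 1091 and 39 of 886 sequences. miR-10b U22G had 3.96, 1.16, 1.85 and 1.08% in Large White thick fat and 1.09, 1.09, 1.16 and 1.08% in thin fat. The library labelled thick fat 1 was far above the rest, and the log2 difference of 0.86 ± 0.37 (adjusted p = 0.995, edgeR) was −0.48 with the 2 doubtful libraries exchanged and 0.29 without them. miR-214-3p U22A had 11.3 to 13.9% in Large White thick fat and 9.00 to 11.1% in thin fat, at 0.41 ± 0.13 (adjusted p = 0.995, edgeR). The highest thick value is that of the library labelled thick fat 1, and the difference was 0.15 with the 2 doubtful libraries exchanged and 0.35 without them. In Hampshire, miR-193a-5p A22U had 18.6 to 25.2% in thick fat and 15.0 to 16.8% in the 2 thin libraries, at 0.52 ± 0.18, and miR-133a-3p U23C, of a skeletal muscle miRNA, had 14.8 to 19.0% and 11.3 to 13.3%, at 0.51 ± 0.23 (adjusted p = 0.995 for both, edgeR).

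The deposited tables of the authors called 0 members in Large White and 0 in Hampshire, where they call 0% of 6771 and 0.0187% of 5339 sequences. They compare levels between fat classes and not shares, so a member can move there with its miRNA.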

How the data were processed

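Small RNA libraries were made with a NEBNext kit after tissue storage in RNAlater and were selected by size on a gel, per the labels' protocols. Tools listed in the submitters' processing notes are FastQC, bcl2fastq and DESeq2, with the Sscrofa10.2 genome, while the trimmer, the aligner and the miRNA annotation are not given in the sources used here. The deposited counts are whole reads per sequence and miRNA name, one table per breed. The deposited comparison of fat classes gives log2 fold changes and adjusted p-values, per the file headers. The 80 unnamed sequences held 0.0480% of reads and were left out.

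A share was member reads over leading plus member reads of the name, in percent. Where miRNAs are compared with each other, only libraries with at least 1000 leading reads were used. Shares of single members by breed or fat class use every library with any leading or member reads, also those with fewer leading reads. For example, Hampshire thin fat 1 held 17 reads of miR-133a-3p U23C. Differences were tested on counts with edgeR 4.0.16 in R 4.3.3, with the log leading count as offset. A sequence entered with an expected count of at least 12 in every library, and 124 to 168 members did. Breed comparisons weighted the fat classes equally. DESeq2 1.42.0 and limma 3.58.1, another offset, other filters, levels scaled by TMM or by size factors, and leaving out libraries were the alternatives. The method was tested on simulated data. Nothing in the labels says which libraries were prepared together. Without molecular identifiers, PCR copies of 1 molecule count several times, so depth speaks for counting error only.

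The members named are the 12 with the most reads and, for each comparison, up to 6 per direction with the smallest p, or 3 where fewer than 3 passed. The members and lists were chosen with earlier results of these data known.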

Additional observations from a re-analysis of the deposited data

Results flagged for a closer look

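Of 68 groups of 4 to 5 libraries examined, 10 held 1 library apart from the rest, where chance alone gives about 1 in 20 in independent groups. The groups are several measures of the same libraries and are not independent. Some gaps were small, such as miR-26a U22A in Large White thick fat 3, against 8.28 to 8.31% in the other libraries of its group. Pietrain thick fat 4 stood apart with 1.01% G at the last position, 11.0% miR-26a U22C, 9.39% let-7i-5p U22C and 15.7% miR-126-3p G22A. Large White thick fat 3 did so with 12.2% miR-10b U22C, 11.9% miR-99a U21C and 8.05% miR-26a U22A. The library labelled Large White thick fat 1 had 2.72% U at the last position, Large White thick fat 4 had 14.2% miR-143-3p C21U, and Hampshire thick fat 4 had 9.66% miR-26a U22A.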

How the results depend on the processing

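No paired analysis was possible because the labels give no number that ties libraries of different groups together. Over 57 named differences and their alternatives, 1364 of 1430 values kept direction and side of the threshold, 35 lost and 4 gained the call, and 27 changed sign; the cause was not tested. Members called in Pietrain between fat classes were 2 without the filter and 1 to 2 when a library was left out, with 2 without thick fat 3 or thin fat 2. In Pietrain against Large White they were 0 with TMM levels, 1 with size-factor levels, 3 without the filter, 18 with DESeq2 and 4 to 13 when a library was left out. In Hampshire against Large White they were 55 and 57 with the levels, 18 without the filter and 18 to 32 when a library was left out, the lowest without Hampshire thin fat 1. Hampshire against Pietrain gave 50 to 72. Over the abundant miRNAs, A at the last position was 3.04% with at least 10000 reads, 2.62% of all reads of a name and 2.56% as a median over names. C was 7.80% of all reads and 12.2% as a median over names, and U 13.5% as a median over names that do not end in U. Leaving out 1 library gave 3.53 to 3.59% for A, 10.5 to 10.6% for C, 1.04 to 1.15% for G, 1.40 to 1.498% for U and 0.287 to 0.301% at the second last position.

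Signs changed as follows on the log2 scale. Between fat classes, miR-26a U22G over all breeds had −0.020 without Large White thick fat 1 and up to 0.32 without another library, −0.28 with the 2 doubtful libraries exchanged and −0.026 without both, and miR-126-3p G22A had 0.054 and 0.060 with TMM and size-factor levels. With the exchange, miR-103 A23G had −0.17 and miR-10b U22G −0.48 in Large White. Without Hampshire thin fat 2, miR-191 U22G had 0.10, against −0.85 without thin fat 1, and miR-103 A23G 0.021, with −0.74 as its lowest value when a library was left out. With TMM and size-factor levels, miR-127 U22A had −0.37 and −0.34 in Pietrain against Large White. In Hampshire against Large White let-7g U22A had −0.81 and −0.74, miR-7 U24C −0.43 and −0.36, miR-23b U24A −0.45 and −0.38, and let-7f-5p U22C −1.20 and −1.12. In Hampshire against Pietrain let-7g U22A had −0.66 and −0.62, miR-23b U24A −0.23 and −0.20, and let-7a U22A −0.30 and −0.26. As a share of all reads of the name, miR-27b-3p C21A had −0.025 and let-7f-5p U22C −0.026 in Hampshire against Large White. Counts of 6 and more limit members with few reads.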
